A study of Mus musculus with 12 samples.

Results

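Immediate early genes outside the AP-1 family were read in RNA-seq of mouse common lymphoid progenitors (CLPs), the bone marrow cells from which lymphocytes arise. The set held 10 genes, Egr1, Egr2, Egr3, Nr4a1, Nr4a2, Ier2, Ier5, Dusp1, Btg2 and Zfp36, found by symbol among 47643 genes in the deposited table. The genes were picked with their levels in these libraries already known, so their own values are given as a description, and nothing is read from calls made on them. The study asked whether Firre, a long noncoding RNA gene on the X chromosome, acts through its RNA. It compared 4 WT male mice, 4 ∆Firre males and 4 dox-fed Firre rescue males, aged 27 to 32 weeks, with 1 library per mouse. ∆Firre mice lacked the Firre gene body and promoter, removed in the germline with a CMV-Cre deleter line. The rescue mice carried that same deletion together with an inducible Firre transgene and the CAG-rtTA3 activator, and ate a doxycycline diet. A diet of this kind was not named for the WT and ∆Firre libraries, so transgenes, doxycycline and Firre RNA cannot be told apart in the rescue group. The rescue libraries also carried their own series of library numbers, apart from those shared by WT and ∆Firre, so library series and group cannot be told apart either.

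Immediate early genes are switched on within minutes of a stimulus without new protein synthesis, largely through serum response factor at CArG boxes and CREB at cAMP response elements (CREs). Egr and Nr4a members encode transcription factors, and several others encode brakes on the response, a MAP kinase phosphatase in Dusp1 and a destabilizer of AU-rich mRNAs in Zfp36. In lymphocytes and their precursors these genes are known as readouts of receptor signalling, and they also respond to stress and to tissue handling.

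Levels were in TPM, transcript abundances scaled to gene length and to the size of each library, and the reads behind them could be recovered as whole numbers. Libraries held 10814610 to 17841005 reads in WT, 14107694 to 17240886 in ∆Firre and 25303499 to 32069937 in the rescue. Firre was listed at 25.2 to 31.6 TPM in WT, at 0 in each ∆Firre library and at 59.9 to 174 TPM in the rescue. CLP genes were detected in every group, among them Il7r at group means of 404 to 424 TPM and Flt3 at 555 to 591 TPM. Of 12 CLP genes, 3 were called higher and 3 lower in each rescue comparison (over all genes, 8.58% higher and 19.3% lower against ∆Firre, 4.82% and 19.4% against WT), and their summed level was 9305 to 10115 TPM in the rescue, 7719 to 8026 TPM in ∆Firre and 6659 to 9265 TPM in WT. Across the 14479 genes with a mean of at least 1 TPM, the difference between group means had a median of -0.06 in ∆Firre minus WT, -0.16 in rescue minus ∆Firre and -0.21 in rescue minus WT. These and all later differences are on the log2(TPM + 1) scale, and each SE comes from 1 limma fit of the 12 libraries. In bulk RNA, fewer cells with a transcript and less RNA per cell cannot be told apart.

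In the dox-fed rescue, 5 of the 10 genes, Egr1, Ier2, Ier5, Dusp1 and Zfp36, stood higher in all 4 libraries than in any WT or ∆Firre library. Nr4a2 and Btg2 stood lower, each against 1 of the 2 other groups, Nr4a1 overlapped in every comparison, and Egr2 and Egr3 were near the detection limit. Between ∆Firre and WT, Dusp1 alone had libraries that did not overlap. Values below follow the libraries labelled 6, 8, 10 and 11 for WT, 8, 9, 11 and 12 for ∆Firre, and 1 to 4 for the rescue.

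**Figure D1:**
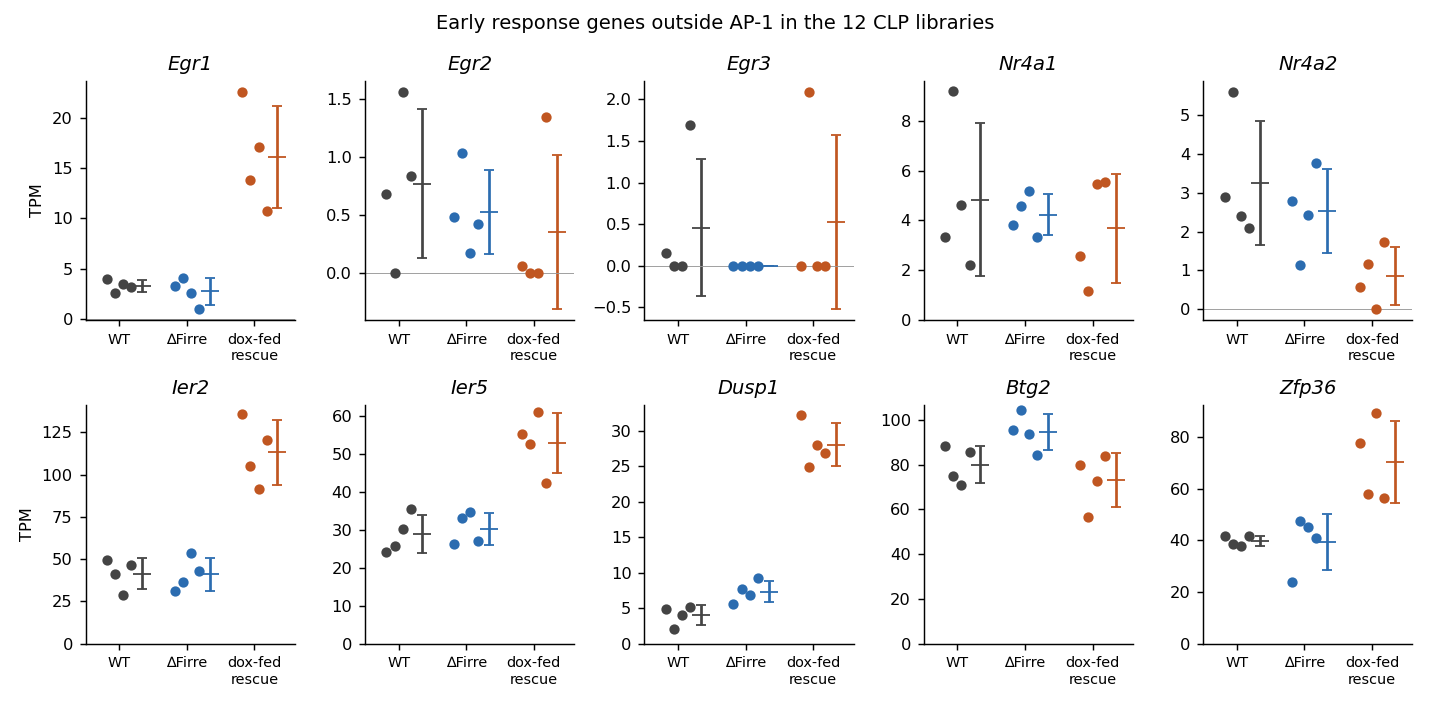
TPM of the 10 genes in each of the 12 CLP libraries (points, 4 per group; y axes differ between genes), with the group mean and SD beside them. Egr1 lies between 10.7 and 22.5 TPM in the rescue and at 4.09 TPM or less elsewhere, whereas Nr4a1 overlaps between the groups.

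The Egr genes encode zinc-finger transcription factors that bind GC-rich sites. Egr1 (chr18:34861207-34864956 in GRCm38.p6) was at 3.99, 2.6, 3.50 and 3.20 TPM in WT, at 3.29, 4.09, 2.64 and 0.995 TPM in ∆Firre, and at 22.5, 13.8, 17.1 and 10.7 TPM in the rescue. The lowest rescue library thus exceeded the highest of the other 8 libraries. Group means were 3.32 ± 0.581, 2.75 ± 1.31 and 16.0 ± 5.06 TPM (SD, n = 4 each), so the rescue mean was 5.83 times that of ∆Firre and 4.83 times that of WT. On the log2 scale the rescue differed by 2.22 (SE 0.31) against ∆Firre and 1.94 (SE 0.31) against WT, while ∆Firre minus WT was -0.27 (SE 0.31). With a pseudocount of 5 the value against ∆Firre was 1.43. The ∆Firre library labelled 12 had the fewest Egr1 reads, 25, and the rescue libraries had 454 to 924. Without that ∆Firre library, ∆Firre minus WT for Egr1 was 0.002.

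Egr2 and Egr3 fell under the mean of 1 TPM needed for the fit. Egr2 (chr10:67534469-67542188) ranged from 0 to 1.56 TPM in WT, from 0.174 to 1.03 TPM in ∆Firre and from 0 to 1.34 TPM in the rescue. In the rescue, 43 of its reads lay in library 4, 2 in library 1 and none in the other two. Egr3 (chr14:70077317-70082613) had no read in 9 of the 12 libraries, where 3 reads would give 0.200 to 0.602 TPM. Its reads were 1 and 11 in the WT libraries 6 and 11, and 33 in rescue library 2, at 2.09 TPM. The libraries of the 3 groups overlapped for both genes at this depth.

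Nr4a1 and Nr4a2 encode orphan nuclear receptors induced by antigen receptor and cAMP signals. Nr4a1 (chr15:101253902-101274795) was at 3.32, 9.19, 4.62 and 2.20 TPM in WT, at 3.81, 4.58, 5.17 and 3.32 TPM in ∆Firre, and at 2.57, 1.16, 5.46 and 5.53 TPM in the rescue. The 3 groups overlapped, and the spread within WT (mean 4.83 ± 3.07 TPM, SD, n = 4) and within the rescue (3.68 ± 2.18 TPM) was wider than the gap between any means. Its log2 difference was -0.28 (SE 0.42) in rescue minus ∆Firre, and this sign changed to 0.08 after quantile normalization.

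Nr4a2 (chr2:57106830-57124003) was at 2.90, 5.60, 2.40 and 2.09 TPM in WT, at 2.78, 1.15, 2.43 and 3.78 TPM in ∆Firre, and at 0.566, 1.17, 0 and 1.73 TPM in the rescue. All rescue libraries lay below all WT libraries but overlapped the ∆Firre library at 1.15 TPM. Rescue library 3 had no Nr4a2 read, where 3 reads would give 0.0699 TPM, although it was the deepest library. Its log2 difference came to -1.22 (SE 0.41) against WT and -0.96 (SE 0.41) against ∆Firre. Its size depended on the pseudocount, running from -0.48 with a pseudocount of 5 to -2.31 with 0.1 against WT, and limma-voom, on its own log2 scale of read counts, gave -3.06 against WT and -2.80 against ∆Firre. Nr4a2 thus lay on the other side of 0 from Egr1 in the same libraries.

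Ier2 and Ier5 are related nuclear proteins of the immediate early response, and Ier5 is known to act with the heat shock factor. Ier2 (chr8:84661331-84662852) was at 49.3, 41.3, 28.9 and 46.6 TPM in WT, at 31.3, 36.6, 53.6 and 42.8 TPM in ∆Firre, and at 136, 105, 91.5 and 120.4 TPM in the rescue. WT and ∆Firre were interleaved, with means of 41.5 ± 9.03 and 41.1 ± 9.59 TPM, and the rescue mean was 113 ± 19.2 TPM (SD, n = 4 each). The log2 difference was 1.45 (SE 0.19) against ∆Firre and 1.44 (SE 0.19) against WT. Ier2 was the most abundant of the 5 genes that stood higher, and in the rescue its level passed that of 90.2% of the genes with a mean of at least 1 TPM, compared with 68.9% in ∆Firre.

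Ier5 (chr1:155096367-155099636) was at 24.1, 25.6, 30.2 and 35.4 TPM in WT, at 26.1, 33.1, 34.7 and 27 TPM in ∆Firre, and at 55.2, 52.6, 61.0 and 42.3 TPM in the rescue. The groups other than the rescue again overlapped, and the lowest rescue library, 42.3 TPM, was above the highest WT library. The rescue mean of 52.8 ± 7.82 TPM was 1.75 times the ∆Firre mean of 30.2 ± 4.29 TPM (SD, n = 4 each). In log2 terms the rescue differed by 0.78 (SE 0.16) against ∆Firre and 0.85 (SE 0.16) against WT, smaller than for Egr1, Ier2 and Dusp1.

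Dusp1 encodes a nuclear phosphatase that inactivates MAP kinases and so limits the signal that induces it. Dusp1 (chr17:26505591-26508472) was at 4.84, 2.11, 3.99 and 5.24 TPM in WT, at 5.63, 7.66, 6.86 and 9.27 TPM in ∆Firre, and at 32.2, 24.9, 28.1 and 26.9 TPM in the rescue. The 3 groups were fully separated in the order WT, ∆Firre, rescue, the only member for which this was so. Means were 4.04 ± 1.39, 7.36 ± 1.53 and 28.0 ± 3.05 TPM (SD, n = 4 each), and the rescue was 3.81 times ∆Firre and 6.93 times WT. The log2 difference was 1.81 (SE 0.23) against ∆Firre, 2.57 (SE 0.23) against WT and 0.76 (SE 0.23) for ∆Firre minus WT, which was 0.46 with a pseudocount of 5. WT and ∆Firre libraries fell into a lower and a higher range of library numbers, with 2 libraries per group in each, and ∆Firre minus WT was 0.71 in the first and 0.81 in the second.

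Zfp36 encodes tristetraprolin, which binds AU-rich elements and brings the CCR4-NOT deadenylase to the mRNA. Zfp36 (chr7:28376784-28379228) was at 41.6, 38.4, 37.6 and 41.5 TPM in WT, at 23.7, 47.7, 45.3 and 41.0 TPM in ∆Firre, and at 77.6, 57.9, 89.2 and 56.5 TPM in the rescue. The rescue libraries again lay above all others, and the ∆Firre library labelled 8 was low, also for Ier2. The mean went from 39.4 ± 10.8 TPM in ∆Firre to 70.3 ± 15.9 TPM in the rescue (SD, n = 4 each), a ratio of 1.78. This was a log2 difference of 0.84 (SE 0.21) against ∆Firre and 0.78 (SE 0.21) against WT.

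Btg2 encodes an antiproliferative protein that also stimulates deadenylation. Btg2 (chr1:134074865-134079155) was at 88.3, 75.2, 71 and 85.9 TPM in WT, at 95.4, 104, 93.8 and 84.5 TPM in ∆Firre, and at 79.8, 56.7, 72.8 and 83.7 TPM in the rescue. It was the most abundant of the 10 genes in WT and ∆Firre, and the rescue lay just under ∆Firre, with 83.7 TPM as its highest library against 84.5 TPM. The log2 difference was -0.38 (SE 0.13) against ∆Firre and -0.14 (SE 0.13) against WT, and the latter changed sign to 0.05 under median-ratio scaling. Btg2 therefore did not share the direction of the 5 genes above in either comparison under the deposited scale.

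**Figure D2:**
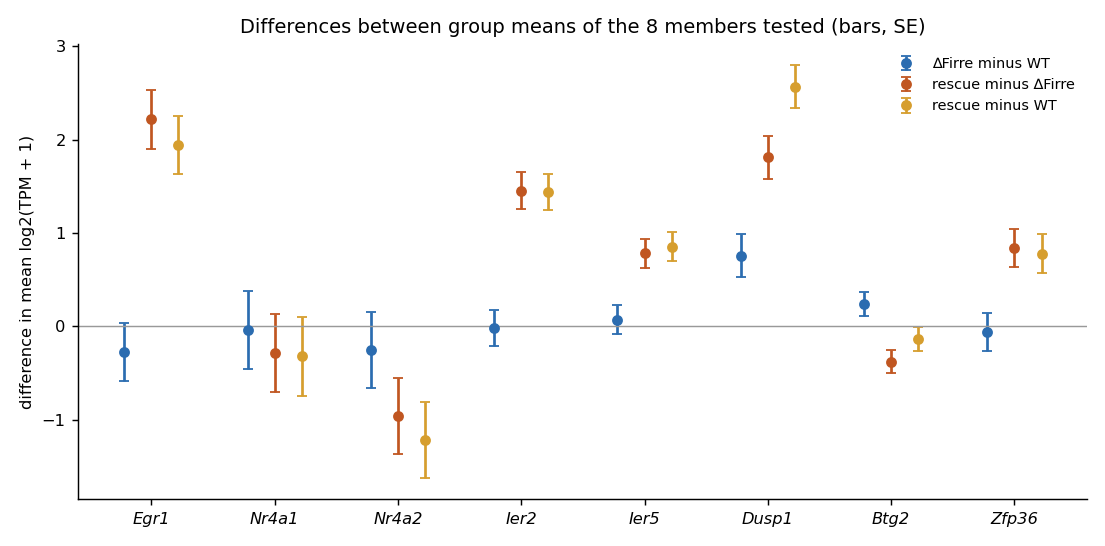
Difference between group means of log2(TPM + 1) for the 8 genes with a mean of at least 1 TPM, with the SE of the limma fit as bars. Against ∆Firre, 5 genes lie between 0.78 and 2.22, and in ∆Firre minus WT only Dusp1, at 0.76, lies above 0.24.

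Promoter sequences are shown for 3 genes that stood higher in the rescue and 3 that did not, to set the known response elements beside the values. Of the 10 genes, 7 were matched in a RefSeq table of start sites (GRCm38.p6): Egr2, Nr4a1, Nr4a2, Ier5, Dusp1, Btg2 and Zfp36. Each line gives the 250 bases before the annotated start site, 5′ to 3′ on the gene's strand. For Nr4a1 that site lies inside the gene span given above. Capitals mark CRE half-sites, TGACG on either strand (a full CRE, TGACGTCA, holds an overlapping pair), and CArG boxes. The first 3 lines are Dusp1 (chr17:26508473-26508722, minus strand), Zfp36 (chr7:28379229-28379478, minus strand) and Ier5 (chr1:155099637-155099886, minus strand), and the others are Btg2 (chr1:134079156-134079405, minus strand), Nr4a1 (chr15:101266596-101266845, plus strand) and Nr4a2 (chr2:57124004-57124253, minus strand).
Dusp1: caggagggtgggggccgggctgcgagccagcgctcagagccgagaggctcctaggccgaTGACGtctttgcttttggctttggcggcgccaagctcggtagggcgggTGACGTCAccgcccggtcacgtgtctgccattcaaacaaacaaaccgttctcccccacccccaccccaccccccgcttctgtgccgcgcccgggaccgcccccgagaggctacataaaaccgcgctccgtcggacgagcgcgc
Zfp36: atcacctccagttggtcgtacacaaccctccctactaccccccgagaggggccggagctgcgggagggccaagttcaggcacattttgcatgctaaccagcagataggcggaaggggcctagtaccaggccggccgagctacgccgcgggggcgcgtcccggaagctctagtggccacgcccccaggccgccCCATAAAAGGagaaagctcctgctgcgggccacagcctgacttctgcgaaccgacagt
Ier5: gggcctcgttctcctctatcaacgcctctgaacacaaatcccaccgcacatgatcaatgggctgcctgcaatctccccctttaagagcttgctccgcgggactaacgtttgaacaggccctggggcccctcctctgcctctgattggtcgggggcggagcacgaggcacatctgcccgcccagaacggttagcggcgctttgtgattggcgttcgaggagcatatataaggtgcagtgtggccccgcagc
Btg2: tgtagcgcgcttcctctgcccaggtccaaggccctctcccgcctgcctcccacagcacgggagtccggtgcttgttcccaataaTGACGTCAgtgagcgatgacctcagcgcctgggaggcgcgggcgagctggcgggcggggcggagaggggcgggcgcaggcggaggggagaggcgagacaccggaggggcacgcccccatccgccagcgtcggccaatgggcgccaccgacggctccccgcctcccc
Nr4a1: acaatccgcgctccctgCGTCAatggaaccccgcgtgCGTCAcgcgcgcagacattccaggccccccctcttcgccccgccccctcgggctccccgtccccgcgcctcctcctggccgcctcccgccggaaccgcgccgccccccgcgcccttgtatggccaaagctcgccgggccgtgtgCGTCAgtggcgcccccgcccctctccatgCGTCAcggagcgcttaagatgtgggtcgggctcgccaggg
Nr4a2: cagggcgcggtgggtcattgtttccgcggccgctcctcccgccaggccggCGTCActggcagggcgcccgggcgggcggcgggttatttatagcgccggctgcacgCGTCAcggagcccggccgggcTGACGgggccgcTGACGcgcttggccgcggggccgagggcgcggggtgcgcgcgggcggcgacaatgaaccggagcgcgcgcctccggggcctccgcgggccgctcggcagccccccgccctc

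A full CRE lay in the Dusp1 and Btg2 windows, and 1.55% of the 32851 windows of this length in the table held one. The Zfp36 window held 1 CArG box, as did 1.47% of all windows. CRE half-sites numbered 4 each in Nr4a1 and Nr4a2, 3 in Dusp1 and 2 in Btg2. The overlapping windows of the Egr2 starts numbered 3, 4 and 5 by position shared 2. At least 1 half-site lay in 17.8% of all windows. EGR sites (GCGNGGGCG on either strand), found in 4.70% of windows, occurred once each in Nr4a1, Nr4a2, Btg2 and Zfp36. The Ier5 window held none of these motifs. Egr2, with 5 annotated starts, had a CArG box before 4 of them, and the windows of starts 3, 4 and 5 held the same box. Of the 2 genes with a full CRE, Dusp1 stood higher in the rescue and Btg2 did not. A match says nothing of factor binding, and a link between these motifs and the levels was not tested.

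Against the rest of the transcriptome the member counts read as follows, with a call set at an adjusted p of 0.1 in the limma fit over all genes. Of the 8 genes fitted, 5 were called higher and 1, Btg2, lower in rescue minus ∆Firre, where 8.58% of all genes were called higher and 19.3% lower. In rescue minus WT the same 5 genes were called higher and Nr4a2 lower, beside 4.82% and 19.4% of all genes. Non-overlapping libraries showed the same genes: 5 higher against ∆Firre, where 6.31% of genes were, and Btg2 lower, where 15.6% were, then 5 higher against WT (3.55% of genes) and Nr4a2 lower (14.5%). Since the genes were chosen on these levels, nothing is read from these counts. Among the settings run, the calls of Btg2 and Nr4a2 were lost under 10 and 11, and those of Zfp36 under the GC correction combined with the replicate block.

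In ∆Firre minus WT none of the 8 genes was called by limma, none by limma-voom on the recovered reads, and 1, Dusp1, had an unadjusted p under 0.05, as did 767 of all 14479 genes. In that comparison 0.0207% of all genes were called, and 0.843% had every ∆Firre library above every WT library, as Dusp1 did. Leaving out the WT library labelled 6 and the ∆Firre library labelled 8, in which neutrophil genes were the lowest of their groups, gave 5 called members in each rescue comparison, in place of 6, and none in ∆Firre minus WT. The share of all genes called in that setting is not given here for the rescue comparisons, so nothing is read from these counts.

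Scaling and base composition moved with the groups. Over all genes, the rescue minus ∆Firre difference correlated with exon GC content (Spearman 0.45, a value across genes and not across mice). The value was 0.32 for rescue minus WT and -0.36 for ∆Firre minus WT. In the set of 440 genes that have at least 60% GC, 37.3% were called higher against ∆Firre and 16.6% against WT. Ier2, at 60.9% GC, was the one tested member in this range. Its difference in rescue minus ∆Firre fell from 1.45 to 0.85 after a correction for GC content. The other higher genes had 52.4% to 54.0% GC and moved less, Egr1 to 2.09, Dusp1 to 1.70, Ier5 to 0.72 and Zfp36 to 0.69. Rescaling by the median ratio moved the median of all genes in rescue minus WT from -0.21 to -0.03 and the split of calls against ∆Firre from 1242 higher and 2801 lower to 1889 and 1875. Against WT the split moved from 698 and 2814 to 1288 and 1256. The 5 genes were higher under each of these scalings.

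**Figure D3:**
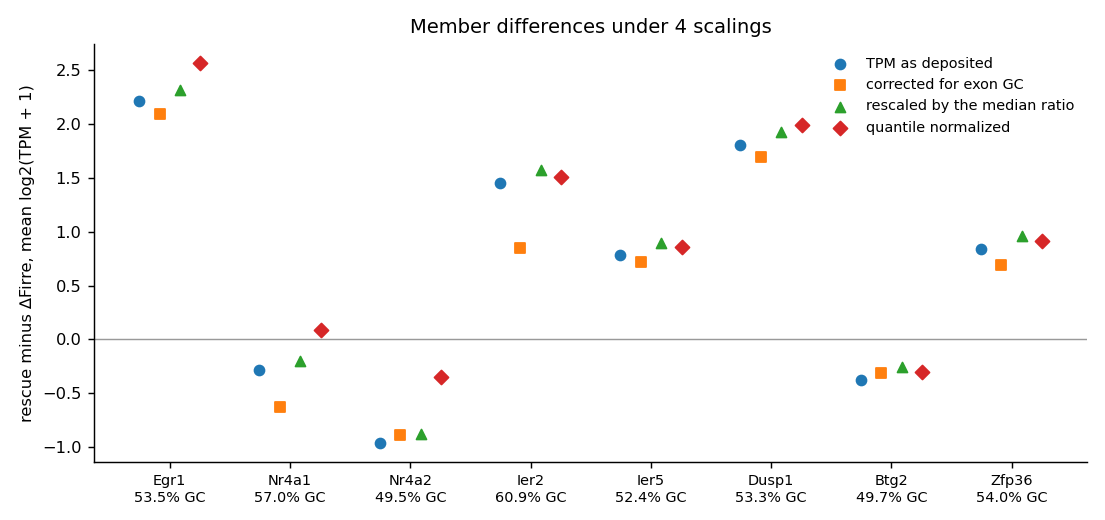
Rescue minus ∆Firre in mean log2(TPM + 1) for the 8 fitted genes under 4 scalings, with exon GC content under each name. Ier2 moves most under the GC correction, from 1.45 to 0.85, and Nr4a1 alone changes sign, to 0.08 after quantile normalization.

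Members differed in which rescue library was highest. Library 3 led for Ier5 and Zfp36 and was lowest for Ier2 and Nr4a2. Library 2 was lowest for Btg2, Nr4a1 and Dusp1 and highest for Egr3. Library 4, which had the most Firre RNA at 174 TPM, was lowest for Egr1, Ier5 and Zfp36 and highest for Egr2, Nr4a1, Nr4a2 and Btg2. Library 1, with the least Firre RNA at 59.9 TPM, was highest for Egr1, Ier2 and Dusp1. In the ∆Firre library labelled 12, Egr1 was at its lowest while Dusp1 was at the highest level of that group. With 4 libraries such orders are given as values without a test.

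By a rule of likeness to the members' mean standardized level over the 12 libraries, the nearest named genes were Ppp1r15a, with Pearson r of 0.92, Arl2 and Junb, both with 0.91, and Rhob, with 0.89, and 2 further entries had no symbol. All 12 libraries fall into 3 groups, so these values mostly follow the step to the rescue. Ranked instead on deviations from group means, Rel was nearest (0.93), then Clasrp, Slc48a1, Cox16 and Aup1 (0.91 to 0.92) and 1 entry without a symbol. Both are descriptions of the closest among 14479 genes and carry no test. The genes nearest the members' mean within groups were thus other genes than those that stepped with it. Within groups the members themselves went both ways, with r of deviations from -0.75 (Nr4a2 and Ier5) to 0.61 (Ier5 and Zfp36).

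A further list held genes close to the members by family, by name or by function, such as the Egr corepressors Nab1 and Nab2. Of the 14 with a mean of at least 1 TPM, none was called higher in either rescue comparison, beside 8.58% and 4.82% of all genes. Against ∆Firre and WT, 2 and 3 were called lower, near the 19.3% and 19.4% of all genes, with medians of -0.13 and -0.27 beside -0.16 and -0.21 over all genes. Ier3, which shares the Ier name and is linked to cell survival, fell from 21.7 ± 6.89 TPM in ∆Firre to 12.1 ± 5.19 TPM in the rescue (SD, n = 4 each, limma adjusted p = 0.062). Nab1, a corepressor of Egr proteins, fell by 0.39 on the log2 scale (limma adjusted p = 0.0164). Zfp36l2, which shares the RNA-binding domain of Zfp36, was at 856 ± 54.5 TPM in ∆Firre and 705 ± 166 TPM in the rescue (limma adjusted p = 0.124) and fell by 0.40 against WT (limma adjusted p = 0.0568), and Zfp36l1 was at 69.9 ± 9.71 and 64.6 ± 8.89 TPM. The phosphatase genes Dusp2 (121 ± 29.8 against 145 ± 8.19 TPM) and Dusp6 (92.3 ± 13.4 against 79.8 ± 10.9 TPM) did not pass. Among Btg2 relatives, Btg1 was at 74.4 ± 15.5 TPM in ∆Firre and 62.4 ± 9.17 TPM in the rescue, and Tob1 at 22 ± 4.47 and 19.4 ± 1.45 TPM, neither past the test. Nr4a3 stayed at a group mean of 0.727 TPM or less, Egr4 was listed at 0 throughout, and Ier5l was at 0.649 ± 0.250 TPM in ∆Firre and 1.92 ± 1.54 TPM in the rescue.

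**Figure D4:**
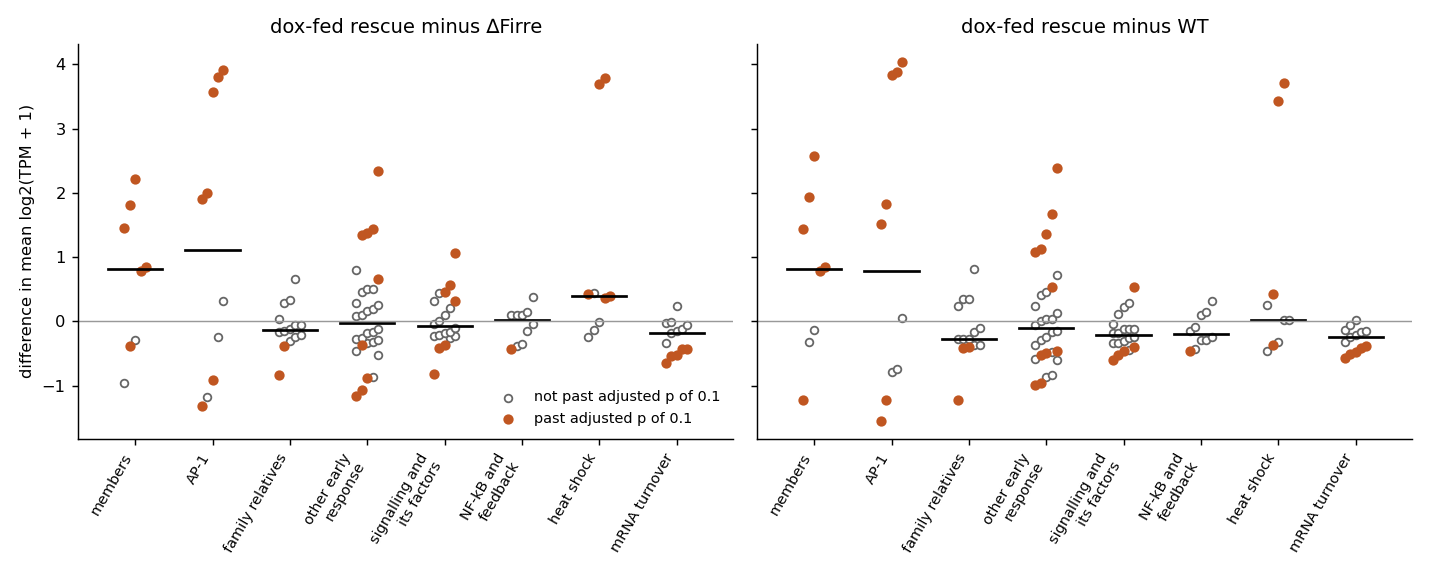
Rescue minus ∆Firre (left) and rescue minus WT (right) in mean log2(TPM + 1) for each fitted gene of 8 lists, filled where the limma adjusted p was 0.1 or less, with a line at each list's median. The members and AP-1 genes show medians of 0.81 and 1.11 against ∆Firre, and the other lists lie between -0.18 and 0.39.

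The AP-1 genes held the largest single differences among the lists of early genes. Of 10 fitted, 5 were called higher and 2 lower in rescue minus ∆Firre, among them Fos at 3.91 and Jun at 3.80, beside 8.58% and 19.3% of all genes. After the GC correction 5 and 3 were called, beside 711 and 1279 of 13086 genes, and the AP-1 median went from 1.11 to 0.60. Fosb reached the mean of 1 TPM needed for the fit only through the rescue. It was at 0.246 TPM or less in WT and 0.801 TPM or less in ∆Firre. Among 30 other early response genes, 5 were called higher and 4 lower (median -0.02), beside the same shares, and after the GC correction 3 and 5 were (median -0.12), beside those same corrected counts over all genes. Without the GC correction, Ppp1r15a, which restarts translation after stress, rose by 2.35 (SE 0.22, limma adjusted p = 6.8e-05), Rhob by 1.44 (adjusted p = 2.1e-04), Klf4 by 1.38 (adjusted p = 0.0367) and Klf2 by 1.35 (adjusted p = 0.00297). Those called lower were Trib1, Klf6, Nfil3 and Rgs2, named here after their values were seen. Against WT, 6 were called higher, Plk2 also, and 5 lower, beside 4.82% and 19.4% of all genes.

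Genes that act upstream of the members were called in both directions, and the called genes of mRNA decay were all lower. Of 20 genes for MAP kinase, SRF and CREB signalling, 4 were called higher and 3 lower against ∆Firre, beside 8.58% and 19.3% of all genes. Without the GC correction, Map2k2, a MAP kinase kinase, was at 28.5 ± 5.30 TPM in ∆Firre and 60.5 ± 7.72 TPM in the rescue (SD, n = 4 each, limma adjusted p = 5.2e-04), and Rps6ka3 fell by 0.82 (adjusted p = 0.0118), as Creb1 fell by 0.42 (adjusted p = 0.0197). After the GC correction 1 of these 20 was called higher and 2 lower, where 711 and 1279 of the 13086 genes with a GC value were. Against WT, 1 of the 20 was called higher and 4 lower, beside 4.82% and 19.4% of all genes. With the GC correction these WT counts were 0 and 4. The share of all genes called against WT under that correction is not given here, so nothing is read from them. Of 13 genes of mRNA deadenylation and decay, the machinery used by Zfp36 and Btg2, none was called higher and 5 lower against ∆Firre. Over all genes 8.58% and 19.3% were. Cnot7 fell by 0.65 (adjusted p = 6.8e-04), and after the GC correction 1 of the 13 was called lower. In the NF-kB list 1 of 10, Nfkbia, was called (19.3% of all genes were called lower), with a fall of 0.43 (adjusted p = 0.0142). In the heat shock list 5 of 9 were called higher against ∆Firre, where 8.58% of all genes were, led by Hspa1b at 3.78 (SE 0.83) and Hspa1a at 3.69 (SE 0.71). There limma-voom called 3 of the 9, beside 4310 of 14470 genes, counting both directions. Against WT, 3 were called higher and 1 lower, beside 4.82% and 19.4% of all genes, and limma-voom called 1 of the 9, beside 2890 of 14470 genes. Hspa1b and Hspa1a were uneven within the rescue, with Hspa1b from 3.0 to 125 TPM and Hspa1a from 1.88 to 48.1 TPM. The lowest rescue library of Hspa1b lay under the highest ∆Firre library, 3.66 TPM. Hspa1a was at 0.863 TPM or less in WT and 0.484 TPM or less in ∆Firre. It reached the mean of 1 TPM needed for the fit only through the rescue, which favoured its call. In ∆Firre minus WT no gene of these lists was called, by limma or limma-voom, and 1 of the other early response genes, 3 of the signalling list and 2 of the heat shock list had an unadjusted p under 0.05, beside the 767 of 14479 over all genes.

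Cell type markers moved between the same groups. Basophil and mast cell genes summed to 1063 to 9110 TPM in WT, 2937 to 4321 TPM in ∆Firre and 64.5 to 142 TPM in the rescue, and all 7 were called lower there in both comparisons. Plasma cell genes summed to 299 to 519 TPM in the rescue, 1607 to 3405 TPM in ∆Firre and 866 to 1622 TPM in WT, with 3 of the 4 ∆Firre libraries above every WT library. In ∆Firre minus WT, where Dusp1 was also higher, none of them was called by limma or limma-voom and 1 of 6 had an unadjusted p under 0.05, beside 767 of 14479 genes. In the rescue and ∆Firre, NK cell genes summed to 354 to 400 TPM and 548 to 864 TPM, with 5 of 8 called lower. Of the 6 plasma cell genes, 4 were called lower against ∆Firre and the other 2 higher. ILC2 genes summed to 60.9 to 92.4 TPM against 122 to 163 TPM, with all 5 fitted called lower. Over all genes 8.58% were called higher and 19.3% lower against ∆Firre, and 4.82% and 19.4% against WT. Mature B cell genes summed to 452 to 680 TPM in the rescue, 362 to 451 TPM in ∆Firre and 324 to 594 TPM in WT, with 2 of 6 called higher and 2 lower in each rescue comparison. The part of these marker genes in the member differences was not tested. Neutrophil genes ran from 122 to 1597 TPM within the rescue itself. The library with the lowest sum, library 3, had the highest Ier5 and Zfp36, and that with the highest sum, library 1, had the highest Egr1, Ier2 and Dusp1.

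**Figure D5:**
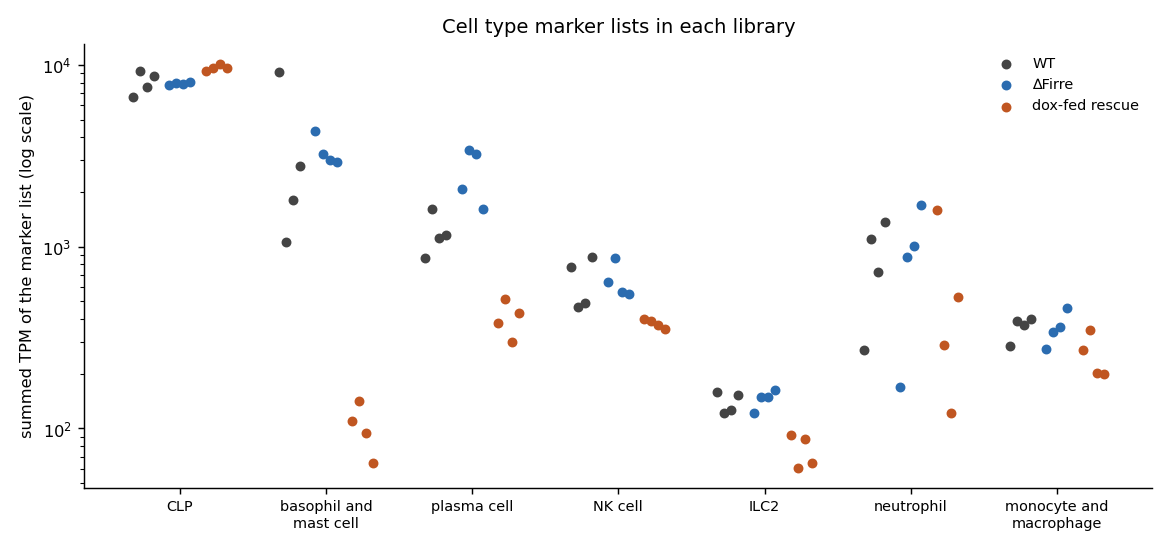
Summed TPM of marker lists (log scale) in each library, coloured by group. Basophil and mast cell genes sum to 64.5 to 142 TPM in the rescue and to 1063 TPM or more in every other library, whereas neutrophil genes overlap between the groups.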

How the data were processed

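Poly(A)+ RNA of sorted CLPs (Lin- Sca1lo cKitlo IL7Ra+) was sequenced as CATS libraries. Per the labels and the study's methods, the authors trimmed reads with cutadapt, aligned them to mm10 with TopHat2 2.1.1 and counted them per gene with featureCounts. The strand setting of that counting was not given in the sources used here. The deposited values are TPM, scaled by the authors to gene length and library size. The table gives Ensembl gene IDs only, and symbols were matched for 13086 of the 14479 genes tested. For 99.9% of the 14479 genes tested, whole reads were recovered from the low values (tolerance 0.02), and 9 genes could not be resolved.

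Groups came from the titles. The main test was limma 3.58.1 (R 4.3.3) on log2(TPM + 1) over all 12 libraries with group as the only term, a mean-variance trend, a minimum mean of 1 TPM and Benjamini-Hochberg adjustment with a threshold of 0.1. A test on counts was run only as limma-voom on recovered reads, which called 0, 4310 and 2890 genes in ∆Firre minus WT, rescue minus ∆Firre and rescue minus WT. GC content came from exons of matched gene IDs (90.4% of genes) in another build, and gene positions came from RefSeq (GRCm38.p6). The fits were tested on simulated data. Alternatives were pseudocounts of 0.1 and 5, other filters, scalings and thresholds, only the groups compared, no trend, blocks, a GC correction and each library left out. The TPM of 3 reads was taken as a detection floor and covers counting error only. Mice were separate, 1 library each. No 2 libraries held identical values.

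The members and gene lists were chosen with earlier results of these data known. Named genes were all members, fixed genes close to the members, and the 6 genes nearest the members by each measure of likeness. From each list, at most 4 called genes with the largest difference per comparison were also named. Genes named beyond this rule were added after their values were seen.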

Additional observations from a re-analysis of the deposited data

Results flagged for a closer look

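In a group of 4, a library was noted where its gap to the nearest other as a share of the range passed Dixon's critical value on the log2(TPM + 1) scale. Of 116 sets of 4 examined, 6 held such a library, and chance gives about 1 in 20. Among the members, Egr2 was at 1.23 in rescue library 4, with the others at 0.09 or less. Egr3 was at 1.43 in the WT library labelled 11, with the others at 0.20 or less, and at 1.63 in rescue library 2, where the other 3 were at 0. Outside the members, Zfp36l2 was at 9.87 in the ∆Firre library labelled 9, above 9.71. Hspa1a was at 0.57 in the ∆Firre library labelled 8, with the others at 0. Dcp2 was at 6.09 in the ∆Firre library labelled 9, with the others at 6.23.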

How the results depend on the processing

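Counts of called members stayed within 1.5 times their value under every setting run, between 4 and 7 in rescue minus ∆Firre, between 4 and 6 in rescue minus WT, and at 0 in ∆Firre minus WT. Over all genes the calls ran from 1193 to 4460 in rescue minus ∆Firre and from 1239 to 4349 in rescue minus WT. The Btg2 call was lost under the median ratio, a threshold of 0.05, the replicate block, both GC corrections and without the ∆Firre libraries labelled 8, 9 or 11 or rescue library 2. Nr4a2 against WT was lost among others without the WT libraries labelled 6 or 8 or rescue library 1, and against ∆Firre it was called by limma-voom, with no mean-variance trend, and without the WT library labelled 8, the ∆Firre library labelled 9 or rescue library 4. Over all genes, the 3 calls in ∆Firre minus WT became 6 with no filter, 1 with only the groups compared, 1 with a block of library number range, 0 by limma-voom and 6 without the WT library labelled 6 and the ∆Firre library labelled 8, an alternative chosen after seeing the data, and ran from 1 (without the ∆Firre library labelled 9 or 11) to 5 (without that labelled 12) when single libraries were left out. The 4043 calls in rescue minus ∆Firre became 2682 at a threshold of 0.05 and 1990 after the GC correction, and the 3512 in rescue minus WT became 2263 with only those groups fitted. The replicate numbers do not pair the libraries (correlation of deviations -0.03 for number 8 and -0.04 for number 11), and with the replicate block calls against WT became 2113. The GC correction with the replicate block gave 1 in ∆Firre minus WT, 1193 in rescue minus ∆Firre and 1239 in rescue minus WT. Egr2 and Egr3, at 0 to 43 reads per library, were too low to be fitted.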
